A study of Rattus norvegicus with 8 samples.

Results

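The time course of rat spinal cord cultures kept with fibroblast growth factor 9 (FGF9) was followed from 24 h to 10 days of treatment. The arrays were chosen by their titles: 2 of FGF9 cultures at 24 h and 2 at 10 days, which is 4 of the 8 arrays of the series. The cultures were prepared from dissociated spinal cords of Sprague-Dawley rat embryos, in which neurons, astrocytes and oligodendrocytes grow together and axons become myelinated. Human FGF9 protein was added at 100 ng/ml, and the other 4 arrays are of untreated cultures at the same times, 2 per time. The samples are titled as myelinating cultures, although their source field reads neurosphere-derived astrocytes; the markers given next bear on this. Total RNA was hybridised to Affymetrix Rat Gene 1.0 ST arrays, and each value is the deposited level of a gene on a scale read as log2, so that a difference of 1 log2 unit is a doubling.

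FGF9 is a secreted ligand that neurons and glia make. It binds FGF receptors on the cell surface, and the receptors switch on the RAS-ERK kinase cascade, which induces Etv4, Etv5, the Dusp phosphatases and the Sprouty inhibitors that dampen the same cascade. In the central nervous system FGF signalling holds oligodendrocyte precursors in a dividing, immature state and changes how astrocytes behave.

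All 4 FGF9 arrays carried transcripts of the cells that the culture should hold, with the marker genes fixed for each cell type. Mbp, the myelin basic protein, stood at 12.29 and 10.78 at 24 h and at 12.53 and 10.93 at 10 days, always at or above the 92nd percentile of its array. The astrocyte water channel Aqp4 stood at or above the 93.8th percentile and the neuronal release protein Snap25 at or above the 97.6th. Some of the other fixed markers ran lower. Percentiles were 58.9 to 95.1 for Mog and 73.4 to 97.7 for Mag, both of oligodendrocytes, and 55.9 to 87.2 for the neuronal gene Rbfox3. Of the precursor markers, Pdgfra ran from 88.1 to 92.9 and Cspg4 from 40.3 to 71.5. Of the markers of other cells, the muscle factor Myog lay between 4.89 and 5.13, the globin gene Hbb between 4.17 and 4.98 and the endothelial gene Pecam1 between 5.32 and 5.38, while Cdh5, also endothelial, stood at 5.53, 7.21, 5.88 and 5.33. Col1a1, a collagen of fibroblasts, stood at 11.38, 11.36 and 10.96 but at 7.27 on the second 10-day array. Percentiles were 30.9 to 70.7 for Dcn, also of fibroblasts, 40.5 to 48.9 for the ependymal gene Foxj1 and 31 to 35.1 for the muscle gene Ckm. The 4 microglial markers did not move together: Itgam stood at 7.62 and 7.45 at 24 h against 6.56 and 5.79 at 10 days and Csf1r, at or above the 74.2nd percentile throughout, at 10.37 and 9.76 against 9.40 and 9.35. Cx3cr1 was higher at 10 days, at 7.35 and 7.49 against 7.60 and 8.47, and the times overlapped for Aif1. The part of such cells in the differences below was not tested. In RNA from whole cultures, fewer cells of a type and less RNA per cell cannot be told apart.

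The array names carry a prefix that limits every comparison of the times. Replicate 1 at 24 h has the prefix CL1, replicate 2 at 24 h and replicate 1 at 10 days have CL2, and replicate 2 at 10 days has AA1; untreated arrays of the same time and replicate number carry the same prefix. What the prefix stands for is not explained in the labels. Across all features the AA1 array correlated with the other 3 FGF9 arrays at 0.933 to 0.937, while the CL2 pair, taken at different times, correlated at 0.969 and the 24 h pair at 0.976. The median absolute difference between replicates was 0.224 log2 units at 24 h and 0.398 at 10 days, against 0.285 between the CL2 arrays of the 2 times. Levels over 19 housekeeping genes were 12.17, 12.29 and 12.36 on the CL arrays and 11.49 on the AA1 array, and its part in the differences was not tested. Values are therefore given below for all 4 arrays, in the order 24 h replicate 1 (CL1), 24 h replicate 2 (CL2), 10 days replicate 1 (CL2) and 10 days replicate 2 (AA1), and the CL2 pair, which holds 1 array per time and has no test, is set beside the means.

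Without regard to prefix, 0 genes were higher (0%) and 0 lower (0%) at 10 days among 14506 genes tested with limma and Benjamini-Hochberg adjustment (the lowest adjusted p was 0.0784), and 1430 genes had p-values under 0.05 before adjustment. With the prefix as a fixed block, called the prefix fit below, 708 genes rose (4.88%) and 881 fell (6.07%). In that fit time is separated from prefix only through the CL2 arrays, FGF9 and untreated, and through the change of the FGF9 effect. It leaves 2 residual degrees of freedom. All 708 and all 881 differed in the same direction between the FGF9 arrays of prefix CL2. Those arrays enter the estimate itself, so this agreement is largely set by the fit. With the prefix as a random block, 150 genes were called higher (1.03%) and 59 lower (0.407%), all of them among those of the prefix fit. Leaving the CL1 arrays out of the prefix fit gave 223 and 263, and leaving the AA1 arrays out 1072 and 1334. For the gene lists with most calls, those left with the random block and without the CL1 arrays are given beside those of the prefix fit. The words rose and fell are used below only of genes past the threshold of 0.05 in the prefix fit, and the difference of means ± its standard error (SE, n = 2 arrays per time) comes from the fit without prefix, in which no single gene passed.

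Simple separation of the arrays was more common. In 2932 genes (20.2%) both 10-day arrays lay above both 24 h arrays, and in 2836 (19.6%) both lay below. Counts with no overlap between the times in the lists below are to be read against these shares. Calls are to be read against 4.88% higher and 6.07% lower in the prefix fit, and 1.03% and 0.407% with the random block. Without the CL1 arrays the matching counts are 223 and 263 of 14506 genes. In the CL2 pair alone 555 genes were higher by at least 1 log2 unit (3.83%) and 674 lower (4.65%). Untreated cultures over the same interval had 2006 genes with all arrays higher (13.8%) and 1980 with all lower (13.6%). With so few arrays per time, random ordering of the arrays would also separate many genes in each direction. That share was not tested against, so these counts over all genes do not by themselves show change with time. Whether replicates came from separate cultures is not stated, so each p-value measures only the spread between arrays, which may be technical.

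The genes with the widest gap upwards were led by secreted proteins of reactive glia. Chi3l1, a secreted chitinase-like protein of reactive astrocytes, stood at 7.40, 7.93, 12.44 and 13.02, a difference of 5.06 ± 0.46. Serpina3n, a secreted inhibitor of serine proteases, stood at 5.80, 5.80, 9.57 and 9.54 (3.76 ± 0.33). Lcn2, the iron-siderophore carrier lipocalin 2, stood at 7.77, 8.02, 10.92 and 11.52 (3.32 ± 0.29). The replicates of a time lay closest together for Serpina3n. In each of these genes the lowest 10-day array was at least 2.89 log2 units above the highest 24 h array, which is the gap they were picked for.

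Car12 and Car9, membrane carbonic anhydrases that hydrate carbon dioxide and are induced when oxygen is scarce, had wider gaps than Lcn2. Car12 stood at 6.12, 5.67, 9.82 and 9.81 (3.92 ± 0.33). Car9 stood at 5.44, 5.99, 10.12 and 9.07 (3.88 ± 0.40). At 24 h both lay below the array medians over all features (6.66 and 6.65) and above the 5th percentiles (4.85 and 4.83). Whether the size of their change is understated at such levels was not tested. Pygm, a glycogen phosphorylase, was higher by 3.71 ± 0.46 and Cox4i2, the low-oxygen form of a cytochrome c oxidase subunit, by 2.54 ± 0.45. Angptl4, a secreted inhibitor of lipoprotein lipase, was higher by 2.98 ± 0.43.

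Hormone metabolism genes were also in this group. Dio2, the deiodinase that makes active thyroid hormone, stood at 5.52, 5.75, 8.68 and 8.46, and Thrsp, a thyroid hormone-responsive regulator of fat synthesis, at 6.15, 7.24, 10.19 and 9.52. Hsd11b1, which regenerates active glucocorticoid, stood at 8.82, 8.28, 11.29 and 11.96. Gfral, the receptor of the stress cytokine GDF15, stood at 5.83, 6.72, 8.89 and 9.72, and Gdf15 itself at 5.66, 5.61, 7.34 and 6.38. Gdf15 had an adjusted p of 0.0511 in the prefix fit of limma. Sectm1b (3.02 ± 0.33), Agmo, an ether lipid cleaving enzyme (2.64 ± 0.26), and Mgarp, a mitochondrial protein (2.80 ± 0.32), complete the 15. All 15 rose in the prefix fit of limma, with adjusted p between 0.0108 (Chi3l1) and 0.0473 (Thrsp). They were picked for their gap on the same FGF9 arrays, so passing was partly set by that choice.

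**Figure D1:**
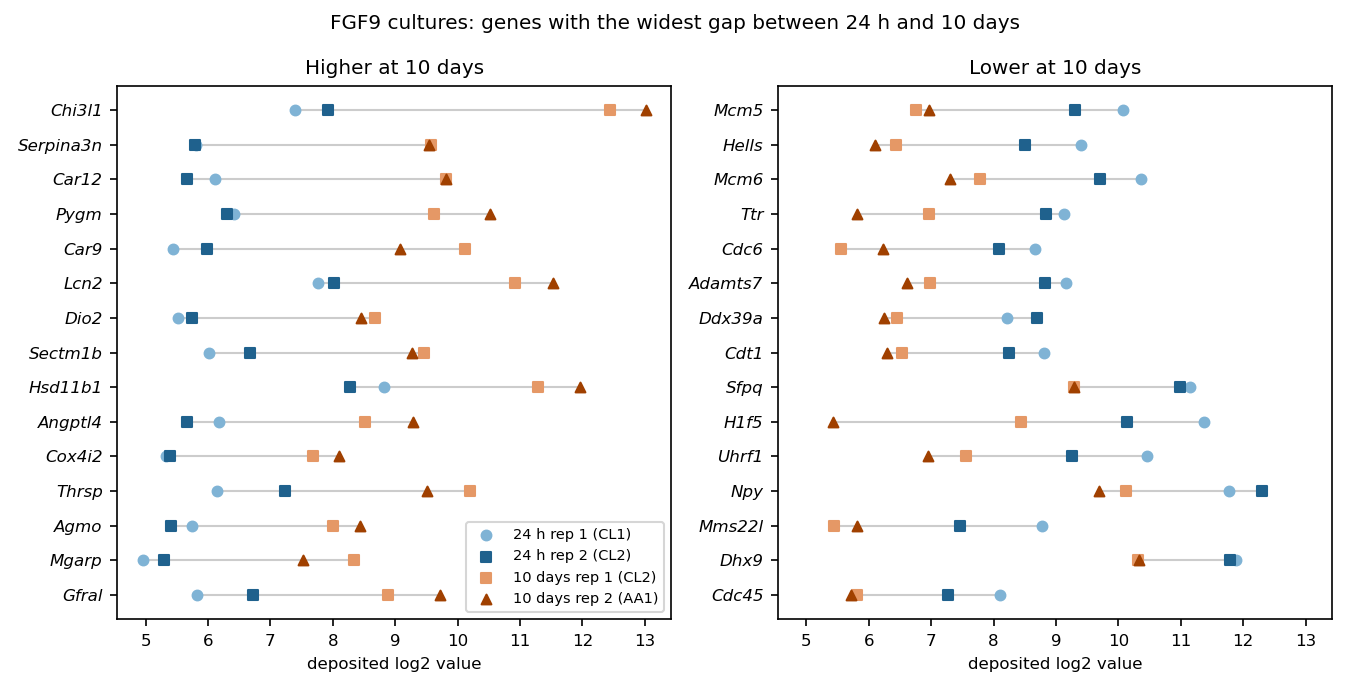
Deposited log2 values (horizontal axis) of the 15 genes per direction with the widest gap between the times in FGF9 cultures, 1 symbol per array; grey lines span the 4 arrays. Chi3l1 runs from 7.40 and 7.93 at 24 h to 12.44 and 13.02 at 10 days, and Mcm5 from 10.07 and 9.30 down to 6.76 and 6.96; the genes were picked for this gap.

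Genes of DNA replication held many of the places at the other end. Mcm5, a subunit of the replicative helicase, stood at 10.07, 9.30, 6.76 and 6.96 (-2.82 ± 0.63), and Mcm6, another subunit, at 10.36, 9.71, 7.78 and 7.30 (-2.50 ± 0.52). Cdc6 and Cdt1, which load that helicase on origins, differed by -2.48 ± 0.45 and -2.12 ± 0.48. Cdc45, which activates it, differed by -1.92 ± 0.48, Uhrf1, which copies DNA methylation after replication, by -2.61 ± 0.74, and Mms22l, which repairs stalled forks, by -2.49 ± 0.59. Hells, a chromatin remodeller, stood at 9.40, 8.50, 6.44 and 6.11 and missed the threshold of the prefix fit (limma adjusted p = 0.0547), as did the linker histone H1f5 (0.0628), which stood at 11.38, 10.14, 8.44 and 5.43.

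The remaining genes of the 15 were of other kinds. The RNA-binding proteins Sfpq (11.14, 10.99, 9.29 and 9.29), Dhx9 (11.89, 11.79, 10.32 and 10.33) and Ddx39a (8.22, 8.70, 6.46 and 6.25) fell, and the replicates of Sfpq and Dhx9 lay close together. Npy, neuropeptide Y, fell from 11.77 and 12.30 to 10.12 and 9.69, and Adamts7, a secreted metalloprotease, from 9.16 and 8.82 to 6.99 and 6.62. Ttr, the carrier of thyroid hormone and retinol, stood at 9.13, 8.84, 6.96 and 5.81 without passing (limma adjusted p = 0.289 in the prefix fit).

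Promoter sequences are shown for Mcm5 and Mcm6, which fell, for Hells, which was lower without passing, and for Car9, because the letters that E2F factors and hypoxia-inducible factors are known to bind can be seen in them. They are from RefSeq (GRCr8), run 5′ to 3′ along the gene from 250 bases before its start to 20 after, and lie at chr19:13488563-13488832 on the + strand, chr13:42404333-42404602 on the - strand, chr1:246113879-246114148 on the + strand and chr5:62558774-62559043 on the + strand. Capitals mark each match on either strand to TTTNNCGC in the first 3 and to ACGTG in Car9, and where 2 matches overlap the run is longer.
Mcm5: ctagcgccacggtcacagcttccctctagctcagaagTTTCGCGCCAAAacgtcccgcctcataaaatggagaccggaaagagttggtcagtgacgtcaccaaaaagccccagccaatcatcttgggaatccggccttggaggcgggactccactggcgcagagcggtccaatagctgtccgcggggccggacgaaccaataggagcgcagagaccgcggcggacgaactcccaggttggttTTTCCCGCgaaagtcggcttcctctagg
Mcm6: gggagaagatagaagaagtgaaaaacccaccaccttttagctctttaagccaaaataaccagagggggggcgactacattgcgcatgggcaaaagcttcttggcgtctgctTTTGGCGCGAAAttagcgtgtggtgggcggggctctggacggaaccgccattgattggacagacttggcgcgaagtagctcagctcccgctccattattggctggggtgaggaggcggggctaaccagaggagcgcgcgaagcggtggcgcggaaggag
Hells: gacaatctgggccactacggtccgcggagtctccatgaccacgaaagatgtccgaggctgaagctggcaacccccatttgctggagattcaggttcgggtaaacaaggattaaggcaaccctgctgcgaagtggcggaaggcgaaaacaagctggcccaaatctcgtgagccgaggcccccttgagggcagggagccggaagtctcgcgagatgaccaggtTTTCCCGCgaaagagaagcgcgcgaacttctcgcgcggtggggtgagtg
Car9: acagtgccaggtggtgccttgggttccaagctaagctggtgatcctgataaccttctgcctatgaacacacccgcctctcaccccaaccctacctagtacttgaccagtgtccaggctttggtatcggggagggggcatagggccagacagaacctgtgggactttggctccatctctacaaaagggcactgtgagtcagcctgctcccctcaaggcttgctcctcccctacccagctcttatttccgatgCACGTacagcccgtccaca
Mcm5 held 3 matches, Mcm6 2, Hells 1 and Car9 1.

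The letters TTTNNCGC were in 11 of the 25 replication promoters matched by symbol, and in 6.03% of the 11968 promoters matched for all genes measured. TTTGAA, the core of the element that many mitotic genes carry near their start, was in 19 of 33 mitosis and spindle promoters against 14.4% of all. CCAAT was in 16 of the 25 replication promoters and 23 of the 33 mitotic ones, against 36.8% of all. ACGTG was in 13 of 28 promoters of low-oxygen and glycolysis genes against 20.8% of all. Both strands were searched, and a promoter can count for several motifs, whose matches may overlap. A match is a description of letters and not a measured binding site.

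**Figure D2:**
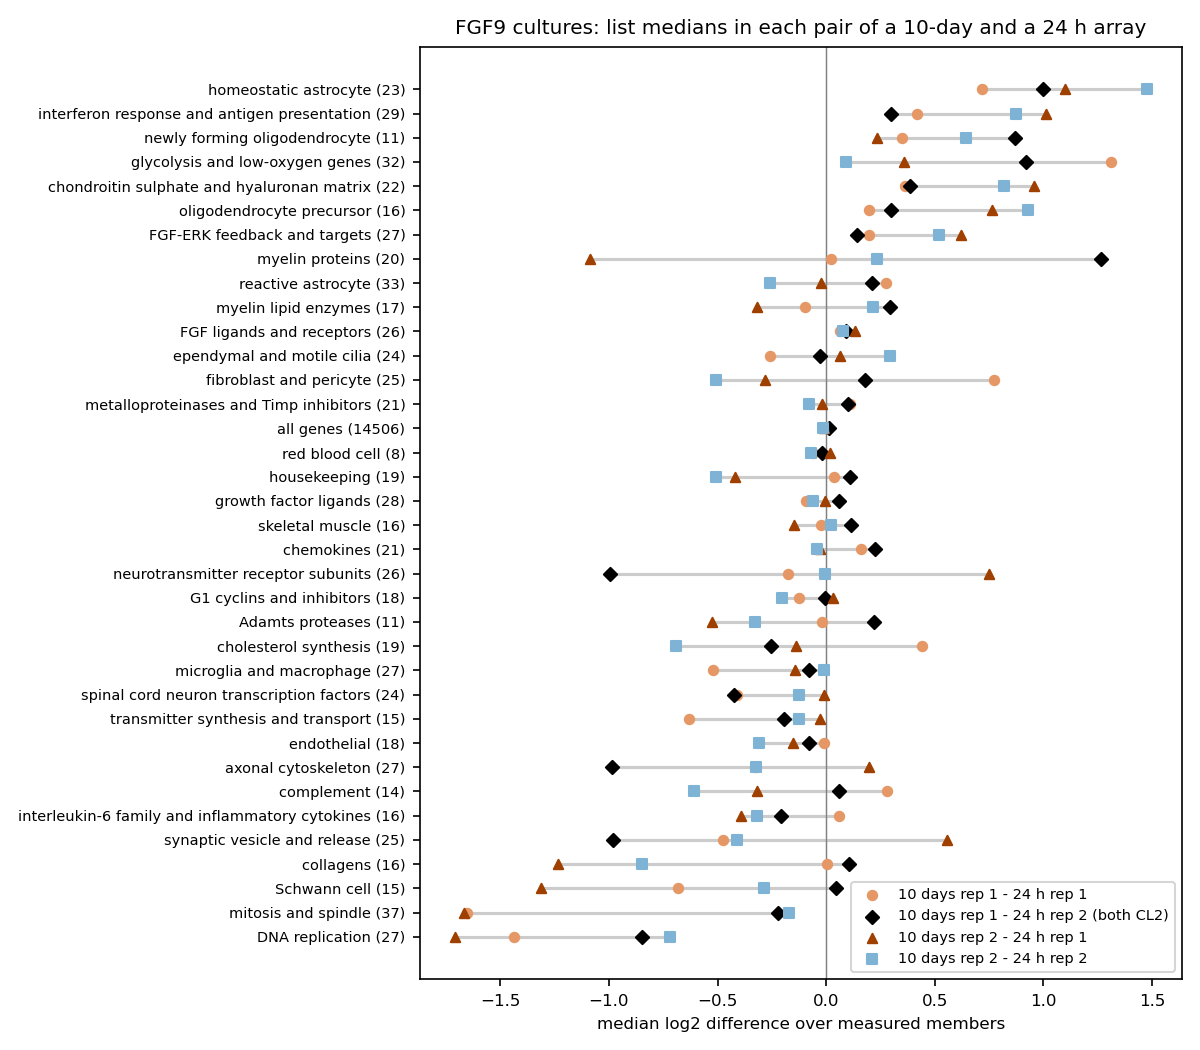
Median log2 difference (horizontal axis) over the measured members of each of 35 gene lists and over all genes, for each of the 4 pairs of a 10-day and a 24 h FGF9 array; the number in brackets is the number of members and black diamonds are the pair that shares the prefix CL2. DNA replication lies below 0 in all 4 pairs (-1.71 to -0.72) and homeostatic astrocyte genes above 0 in all 4 (0.72 to 1.48), while myelin proteins run from -1.08 to 1.26.

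Replication genes as a group were lower at 10 days. All 27 measured members of the DNA replication list had a lower mean at 10 days, with a median difference of -1.07 against -0.001 over all genes. In 24 of them both 10-day arrays were below both 24 h arrays, where 19.6% of all genes were, and 10 fell in the prefix fit (6.07% of all genes) with 0 rising. Of the 27, 1 was called lower with the random block and 4 without the CL1 arrays. The CL2 pair alone had a median of -0.85. In untreated cultures 8 of the 27 were lower in all arrays and the median was -0.47, with 0.16 in the untreated CL2 pair.

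Mitotic genes separated less cleanly. All 37 members of the mitosis and spindle list had a lower mean, with a median of -0.89, and 19 had no overlap. The CL2 pair had a median of only -0.22, and the 24 h CL1 array stood far above the 24 h CL2 array, with list levels (medians over members) of 8.85 and 7.41 at 24 h and of 7.02 and 7.07 at 10 days. Bub1, a spindle checkpoint kinase, fell (8.91, 7.98, 6.27 and 6.73), 1 of 2 that did, while 1 member rose; with the random block and without the CL1 arrays 0 were called. Ttk, another checkpoint kinase, stood at 8.92, 7.31, 6.17 and 5.85, and Top2a, the topoisomerase that untangles chromosomes, at 10.90, 9.38, 9.05 and 8.30; neither passed.

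Of the 18 G1 cyclins, their kinases and inhibitors, 4 were higher and 5 lower with no overlap, shares near those of all genes (20.2% and 19.6%). Ccne2, a cyclin that starts replication, fell (9.01, 8.46, 7.30 and 8.10). Cdk2, its kinase, stood at 9.83, 8.94, 8.15 and 8.15 and did not pass. Ccnd1, cyclin D1, a target of FGF signalling, stood at 11.62, 12.40, 11.50 and 12.05, so that its times overlapped.

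Glycolysis and low-oxygen genes were higher at 10 days in most members. Of 32 measured, 19 were higher with no overlap against 20.2% of all genes, 1 was lower, and 16 rose in the prefix fit (4.88% of all genes) with 0 falling. The random block left 5 called higher, and the fit without the CL1 arrays 9. The median difference was 0.58, and 0.92 in the CL2 pair. Vegfa, the endothelial growth factor, rose from 8.12 and 9.27 to 11.36 and 11.73, and Egln3, an oxygen-sensing hydroxylase, from 9.54 and 9.50 to 11.10 and 11.21. The AA1 array was lower than the CL2 array in much of the list: its level over members was 10.78, equal to that of the 24 h CL2 array at 10.79, against 11.38 for the CL2 array at 10 days. The untreated arrays ran alike, with levels of 10.12 and 10.58 at 24 h and of 11.15 and 10.38 at 10 days, and 12 of the 32 were higher in all arrays there.

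**Figure D3:**
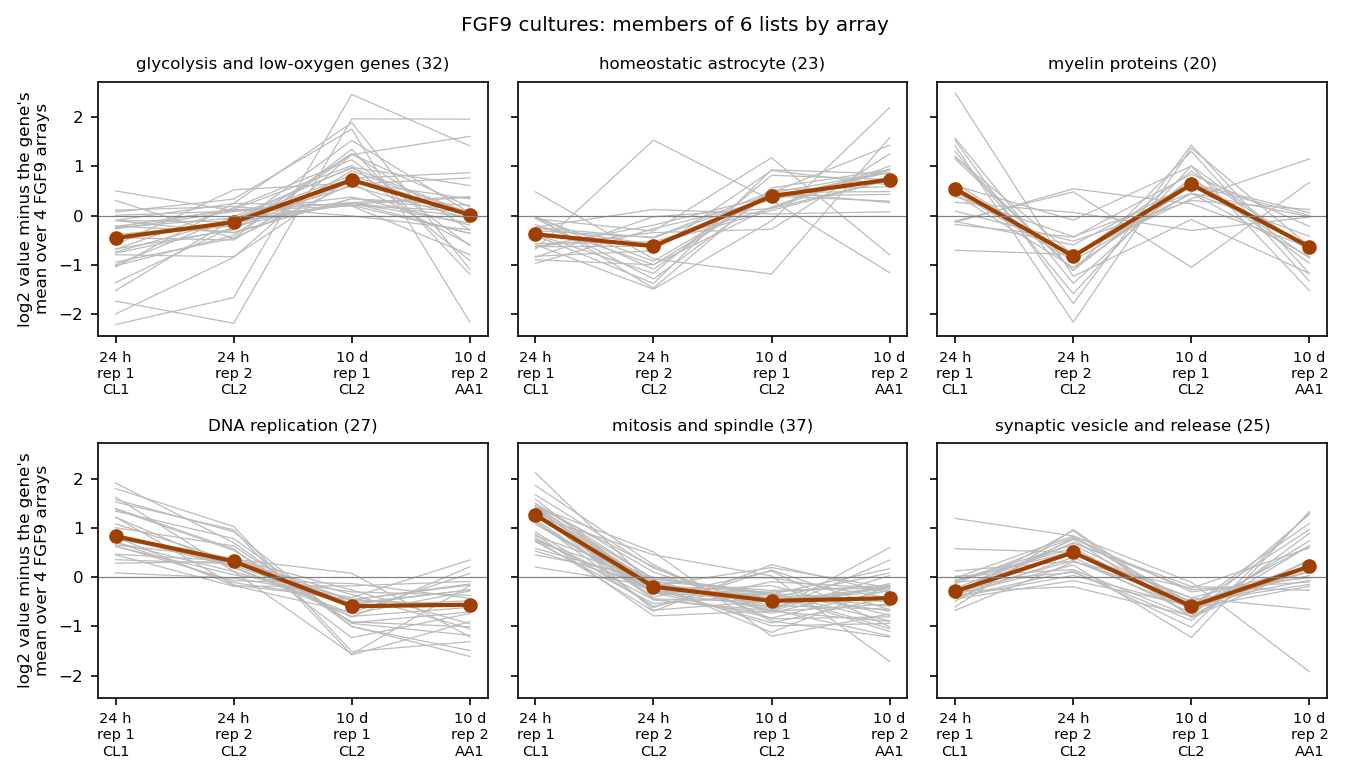
Each grey line joins the 4 FGF9 array values of 1 gene after its own mean over those arrays is subtracted (vertical axis, log2 units), and the thick line is the median over the list; the horizontal axis gives time, replicate and prefix. Replication genes are high in both 24 h arrays and low in both 10-day arrays, whereas myelin and synaptic genes alternate between arrays of the same time.

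Genes of homeostatic astrocytes, which clear glutamate and buffer potassium and water, were higher at 10 days. Of 23 measured, 22 had a higher mean, 19 had no overlap (20.2% of all genes), 0 were lower with no overlap, and 12 rose in the prefix fit (4.88% of all genes). With the random block 5 were called higher and without the CL1 arrays 8. The median difference was 1.10 (1.00 in the CL2 pair), and untreated cultures gave 0.33 with 8 of 23 higher in all arrays. Slc1a2, the main glutamate transporter, rose from 10.68 and 10.58 to 12.05 and 13.01. Aqp4 rose from 12.25 and 11.01 to 12.77 and 13.18, S100b, a calcium-binding protein, from 10.52 and 9.54 to 11.85 and 11.77, and Maob, the monoamine oxidase of astrocytes, from 9.15 and 9.26 to 10.89 and 10.59.

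The astrocyte filament Gfap also separated, at 12.14, 11.24, 12.64 and 12.66, but did not pass (limma adjusted p = 0.0682 in the prefix fit). Cbs, which makes cystathionine, rose from 6.62 and 5.82 to 7.81 and 7.73. Slc1a2 stood at 11.19 and 11.69 in untreated cultures at 24 h and at 11.76 and 12.34 at 10 days, and S100b at 11.73 and 11.18, then 12.15 and 11.70. At 10 days each FGF9 array was above the untreated array of its prefix for Slc1a2, and for S100b it was below it in the CL2 pair and above it in the AA1 pair. For Aqp4 (untreated 13.33 and 13.50) and Maob (11.99 and 11.98) both FGF9 arrays remained below. The list level at 24 h was 10.43 and 9.26 with FGF9 against 10.54 and 10.96 untreated. At 10 days it was 10.89 and 11.53 against 11.31 and 11.43.

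Reactive astrocyte genes were mixed. Of 33 measured, 10 were higher and 7 lower with no overlap (20.2% and 19.6% of all genes), and the median was 0.10. In the prefix fit 5 rose and 2 fell (2 and 1 with the random block, 3 and 3 without the CL1 arrays). Serpina3n and Lcn2 led the rise, with Hspb1, a small heat shock protein, rising from 11.30 and 10.90 to 13.07 and 12.70. Clcf1, which signals through the receptor shared by interleukin-6 cytokines, was 1 of the 2 that fell (7.90, 8.51, 6.61 and 6.41). Timp1, an inhibitor of metalloproteinases, stood at 11.91, 12.06, 12.77 and 12.47 and did not pass. Timp4, a relative of Timp1, rose from 8.70 and 7.84 to 10.24 and 11.13, and Mmp19, a secreted protease, from 8.49 and 8.45 to 9.30 and 9.38. Both are in a list of 21 metalloproteinases and Timp inhibitors with a median of 0.04. In that list 5 were higher and 5 lower with no overlap, and 2 rose and 2 fell.

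FGF receptors and the genes they induce were examined because FGF9 was present throughout. Of the 27 feedback and target genes of the FGF-ERK cascade that were measured, 13 were higher and 3 lower with no overlap (20.2% and 19.6% of all genes), 5 rose and 1 fell (4.88% and 6.07%), and the median was 0.39. With the random block 2 were called higher and 0 lower, and without the CL1 arrays 1 and 1. Etv4, a transcription factor of the ETS family, rose from 7.20 and 7.46 to 8.37 and 8.50, while in untreated cultures it stood at 6.91 and 6.89 at 24 h and at 6.03 and 5.84 at 10 days. Fos rose from 7.14 and 7.27 to 8.48 and 8.56, and Spred1, an inhibitor of RAS signalling, from 10.53 and 10.39 to 11.29 and 11.81.

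For other feedback genes the difference did not pass. Dusp6, an ERK phosphatase, stood at 11.02, 11.26, 11.46 and 11.48, Spry4 at 8.54, 9.41, 8.74 and 9.60, and Etv5 at 9.14, 8.37, 8.86 and 9.76. Phlda1, an ERK-responsive gene, stood at 11.48, 11.53, 10.77 and 10.58. The times overlapped for Spry4 and Etv5 and did not for Dusp6 and Phlda1.

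Some secreted factors were lower. Besides Clcf1, which fell, Il11, a cytokine related to interleukin-6, stood at 7.43, 8.91, 7.06 and 5.69 and Hbegf, which activates epidermal growth factor receptors, at 10.99, 11.17, 10.75 and 9.28. Neither passed, although both 10-day arrays were below both 24 h arrays. In untreated cultures Il11 lay between 5.42 and 5.65 and Clcf1 between 5.59 and 5.97 at both times. The second FGF9 array at 10 days was near that level for Il11, and both remained above it for Clcf1.

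**Figure D4:**
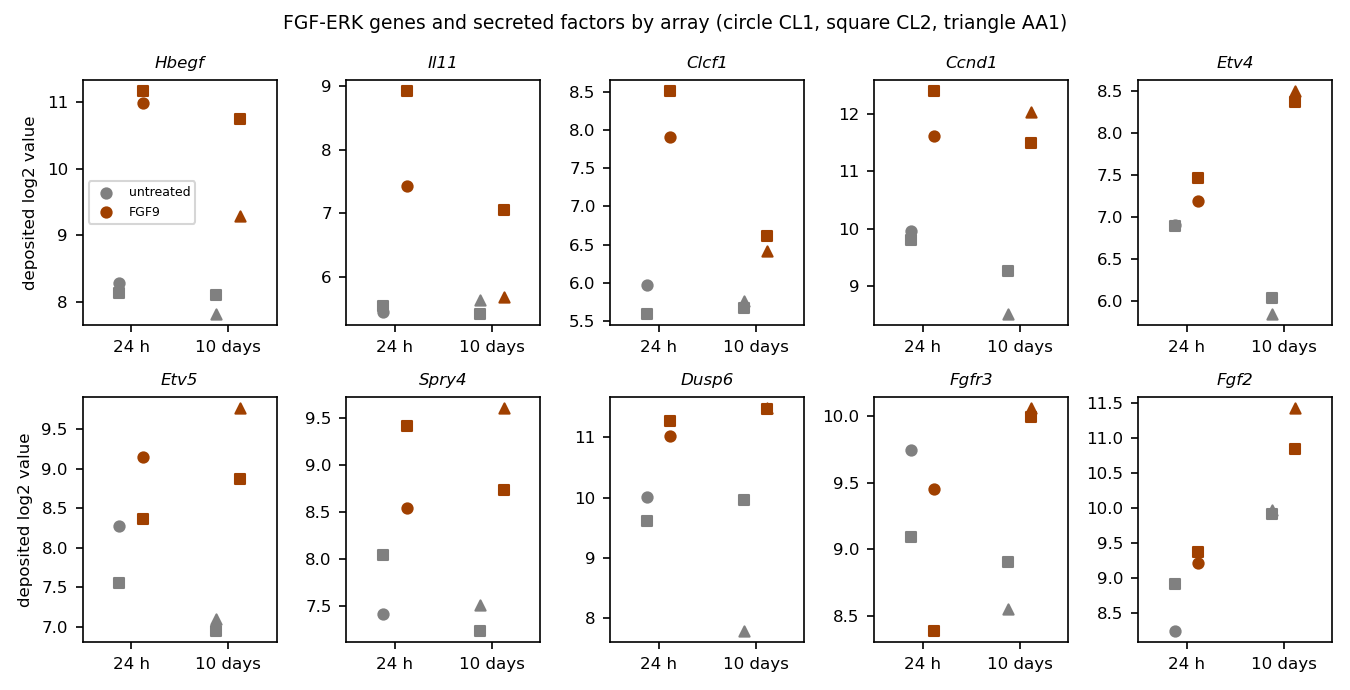
Deposited log2 values (vertical axis, a separate scale per gene) of 10 FGF-ERK genes, FGF family genes and secreted factors in FGF9 (brown) and untreated (grey) cultures at 24 h and 10 days; symbol shape gives the array prefix. Etv4 is at 8.37 and 8.50 at 10 days with FGF9 and at 6.03 and 5.84 without it, and Clcf1 is highest in the 24 h FGF9 arrays (7.90 and 8.51).

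Among 26 FGF ligands, receptors and coreceptors, 9 were higher and 5 lower with no overlap (20.2% and 19.6% of all genes). In the prefix fit 6 rose and 3 fell (4.88% and 6.07% of all genes). With the random block 3 and 0 were called, and 4 and 1 without the CL1 arrays. Fgfr3, a receptor that astrocytes carry, rose from 9.45 and 8.38 to 9.99 and 10.06, and Fgfrl1, a receptor without a kinase, from 8.81 and 7.99 to 9.41 and 10.16. Fgfr1 stood at 10.83, 10.78, 11.21 and 11.74 and Fgfr2 at 10.82, 9.58, 10.74 and 10.74, and neither passed. Of the ligands, Fgf2 rose from 9.22 and 9.38 to 10.84 and 11.42 and Fgf11, which stays inside the cell, from 6.25 and 6.33 to 8.27 and 8.70. The transcript of the rat Fgf9 gene fell in the prefix fit, at 7.04, 8.11, 6.97 and 7.32, with overlapping times; the added protein was human and is not measured.

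Genes of the oligodendrocyte lineage were listed by stage, and the stages were not tested against each other. Of 11 genes of newly forming oligodendrocytes, 8 were higher and 0 lower with no overlap (20.2% and 19.6% of all genes). In the prefix fit 4 rose (1 with the random block, 2 without the CL1 arrays), against 4.88% of all genes. The median was 0.64 (0.87 in the CL2 pair). Untreated cultures gave -0.70, with 1 higher and 4 lower, but 0.07 in the untreated CL2 pair. Enpp6, an enzyme that marks new oligodendrocytes, rose from 8.28 and 8.27 to 9.87 and 8.95, and Itpr2, a calcium release channel, from 9.30 and 8.80 to 9.96 and 10.00. Bcas1, at 9.82, 9.07, 10.27 and 10.32, missed the threshold narrowly (limma adjusted p = 0.0501 in the prefix fit). Gpr17, a receptor of committed precursors, stood at 8.32, 8.65, 8.94 and 8.90 without passing.

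Precursor genes were mixed. Of 16, 8 were higher and 2 lower with no overlap (20.2% and 19.6% of all genes). In the prefix fit 3 rose and 1 fell (4.88% and 6.07% of all genes). With the random block 1 and 0 were called, and also without the CL1 arrays. Those that rose encode matrix or cell surface glycoproteins: Bcan, the proteoglycan brevican (10.29, 10.02, 11.72 and 11.84), Tnr, tenascin-R (8.22, 8.93, 10.04 and 10.49), and Cspg4, the NG2 proteoglycan (6.79, 6.78, 7.89 and 9.18). They are also in the list of chondroitin sulphate and hyaluronan matrix genes, in which 9 of 22 were higher and 0 lower with no overlap, and 6 rose (2 with the random block, 3 without the CL1 arrays), among them Hyal1, a hyaluronidase (8.67, 8.18, 9.60 and 10.68).

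Transcripts of compact myelin could not be ordered by time over all arrays. The level over the 20 measured myelin proteins was 11.13 and 8.88 at 24 h and 11.23 and 8.98 at 10 days, so that the replicates of a time lay further apart than the means of the times. Mal, a lipid raft protein of myelin, stood at 10.62, 7.04, 10.57 and 8.58, and Mog, on the outer surface of myelin, at 11.20, 8.25, 10.40 and 8.66. Only 3 members were higher and 1 lower with no overlap, and the median difference was 0.12. The CL2 pair gave 1.26, and in the prefix fit 15 rose and 1 fell. None (0) was called in either direction with the random block, and 9 higher and 1 lower without the CL1 arrays. The untreated CL2 pair, with a myelin median of 0.86, differed in the same direction.

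Pmp22 was the myelin protein with the widest gap (11.13, 11.05, 12.18 and 12.99), with a limma adjusted p of 0.0505 in the prefix fit. Sirt2 (12.06, 11.44, 12.27 and 12.09) and Gsn, an actin-severing protein (11.64, 11.17, 12.41 and 11.82), rose and had no overlap. Of 17 enzymes of myelin lipids 4 were higher and 5 lower with no overlap (20.2% and 19.6% of all genes). In the prefix fit 6 rose (0 with the random block, 3 without the CL1 arrays), against 4.88% of all genes. Fa2h, which hydroxylates the fatty acids of myelin lipids, rose from 8.79 and 6.34 to 8.96 and 9.78, and Acsbg1, an acyl-CoA synthetase, from 10.60 and 10.24 to 11.31 and 12.14. In the 19 cholesterol synthesis genes 0 rose and 0 fell, with a median of -0.14.

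Neuronal genes showed the same kind of split between arrays. In the 25 synaptic vesicle genes the median was -0.35 over the means and -0.98 in the CL2 pair, but 0.56 between the AA1 array and the CL1 array. In the prefix fit 20 fell, of which 5 had no overlap, and 21 and 7 fell when the AA1 or the CL1 arrays were left out, and 0 were called with the random block. Syt4, a synaptotagmin of dense core vesicles, fell from 12.12 and 11.77 to 10.82 and 9.01, and Sv2b, a vesicle transporter-like protein, from 9.30 and 9.22 to 8.30 and 8.07. Snap25 stood at 11.76, 12.74, 12.21 and 13.03.

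Of 27 axonal cytoskeleton genes 9 were lower and 0 higher with no overlap, and 16 fell (16 and 5 without the AA1 or the CL1 arrays). The random block left 1. Gap43, a protein of growing axons, fell from 11.43 and 11.58 to 10.12 and 8.30, and Dpysl3, which guides growth cones, from 11.20 and 11.41 to 10.42 and 10.37. The neurofilament gene Nefl fell in the prefix fit although its times overlapped (10.50, 11.68, 10.34 and 11.48), and Nefm fell with no overlap (9.83, 11.33, 9.57 and 9.28). Of 26 neurotransmitter receptor subunits 15 fell (0 with the random block, 9 without the CL1 arrays), yet only 2 were lower with no overlap, and 3 were higher. The sodium channels Scn2a (9.51, 10.47, 8.56 and 9.07) and Scn3a (9.21, 9.77, 7.86 and 8.77), the RNA-binding neuronal factor Elavl2 (9.30, 9.99, 8.39 and 8.60) and the surface protein Cd200 (9.65, 10.85, 9.28 and 9.31) had some of the lowest adjusted p-values in the prefix fit among genes that were lower with no overlap. Of the genes picked by this measure, Stra6 (6.17, 8.96, 5.39 and 5.35) had the lowest (limma adjusted p = 0.0108 in the prefix fit). Fam13b, Trhde, Chd3, C8h3orf62 and Ddx39a were also among them. In untreated CL2 arrays the synaptic median was -0.85 and the axonal one -0.66, and all untreated arrays gave 0.16 and 0.13.

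Immune genes gave a partial pattern. Of 29 interferon and antigen presentation genes, 14 were higher and 3 lower with no overlap (20.2% and 19.6% of all genes). In the prefix fit 4 rose and 1 fell (4.88% and 6.07% of all genes). With the random block 1 and 0 were called, and 2 and 1 without the CL1 arrays. Cd74, the invariant chain of class II molecules, rose from 6.38 and 6.92 to 8.87 and 8.78 and B2m, the light chain of class I molecules, from 12.29 and 12.58 to 13.24 and 13.53. In the microglia and macrophage list, which also holds Cd74, 4 of 27 were higher and 8 lower with no overlap (20.2% and 19.6% of all genes). Only 1 rose, which was Cd74. Among other microglial markers Aif1 stood at 6.42, 5.69, 6.37 and 6.28, and Cd68, a lysosomal protein, at 10.28, 9.46, 10.08 and 9.65. The list level was 7.89 and 7.85 at 24 h and 8.09 and 7.96 at 10 days. By member, however, 19 of the 27 had a lower mean at 10 days and 8 a higher one, with a median difference of -0.17. Cxcl13, a chemokine for B cells, rose from 5.37 and 5.44 to 6.95 and 6.72. Of 21 chemokines 5 were higher and 4 lower with no overlap, and in the prefix fit 1 rose and 0 fell.

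Genes of fibroblasts and pericytes were also in the cultures. Of 25, 6 were higher and 2 lower with no overlap (20.2% and 19.6% of all genes). In the prefix fit 9 rose (2 with the random block, 5 without the CL1 arrays), against 4.88% of all genes. Among these were Tagln, an actin-binding protein of contractile cells (7.81, 6.93, 9.61 and 10.01), and Rgs5, a pericyte marker (6.18, 6.52, 8.20 and 7.66). The collagen list had a median of -0.55, of -1.23 and -0.85 in the pairs with the AA1 array and of 0.11 in the CL2 pair. The list level for fibroblasts and pericytes was 7.81, 7.95, 8.96 and 7.66, so that only the CL2 array at 10 days was higher.

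Growth factors and other secreted proteins were mixed as lists. Of 28 growth factor ligands 5 were higher and 7 lower with no overlap (20.2% and 19.6% of all genes), and 1 rose and 1 fell. Hgf, the hepatocyte growth factor, stood at 5.61, 5.32, 7.28 and 8.67, and Igf2, an insulin-like growth factor, at 7.40, 7.33, 8.96 and 9.11, without passing. Of 11 Adamts proteases 3 were lower and 0 higher with no overlap; Adamts1 rose in the prefix fit with overlapping times (8.73, 9.86, 11.01 and 9.73). Both lists are to be read against the same shares. Of 14 complement genes 2 were higher and 3 lower with no overlap. In the prefix fit 3 of them rose and 0 fell (4.88% and 6.07% of all genes), and 0 were called with the random block. C3, the central complement protein, stood at 8.02, 8.41, 6.80 and 7.44 and C1r, a complement protease, rose from 9.30 and 9.28 to 9.97 and 9.77.

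Lists of Schwann cells, endothelium and motile cilia gave few calls. Of 15 Schwann cell genes 3 were higher and 5 lower with no overlap (20.2% and 19.6% of all genes). In the prefix fit 2 rose and 1 fell, and 0 were called with the random block. Dhh (6.56, 6.75, 7.92 and 8.29) and Pmp22 had the widest gaps in the list, both upwards, and did not pass. Ngfr, the low-affinity neurotrophin receptor, fell (8.08, 6.75, 5.86 and 5.88). Of 18 endothelial genes 2 were higher and 5 lower, and 0 passed in either direction. Of 24 genes of motile cilia 6 were higher and 5 lower, with Tekt4 rising (6.16, 5.90, 6.74 and 7.34) and Spaca9 falling (6.40, 6.44, 5.50 and 5.74). Of 24 spinal neuron transcription factors 7 were lower and 1 higher with no overlap, and 9 fell (0 with the random block, 5 without the CL1 arrays), including Ebf3 (9.63, 10.28, 8.79 and 9.36).

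Whether the change with time differed between FGF9 and untreated cultures was tested as the difference of the time differences. Without regard to prefix 0 genes passed in limma (the lowest adjusted p was 0.503, and 276 genes had p-values under 0.05 before adjustment), and 7 passed in the prefix fit (0.0483%), all of them upwards with FGF9. They were Serpina3n, with a difference of 4.88 ± 0.34 (SE of the prefix fit; limma adjusted p = 0.034), Car9 (3.84 ± 0.29), Sectm1b (3.30 ± 0.22), Gfral (3.28 ± 0.20), Fndc3c1 (3.13 ± 0.26), Chi3l1 (3.03 ± 0.24) and Gja5, a gap junction protein (2.52 ± 0.18). The other adjusted p-values lay between 0.034 and 0.0397, and Fndc3c1 is outside the naming rule. With the random block Serpina3n, Car9, Sectm1b and Gja5 passed, and when the CL1 arrays were left out only Serpina3n did. With the AA1 arrays left out 9 genes passed: Serpina3n, Car9, Sectm1b, Gfral, Gja5, H19 and Lcn2 upwards, and Or8s2 (-2.95) and Srsf3 (-2.81) downwards, but neither Chi3l1 nor Fndc3c1.

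Serpina3n showed the contrast in every array. Untreated cultures stood at 5.99 and 6.93 at 24 h and at 5.52 and 5.16 at 10 days, while FGF9 cultures went from 5.80 on both arrays to 9.57 and 9.54. Car9 stayed between 5.28 and 5.81 in the 4 untreated arrays. Chi3l1 was higher with time in untreated cultures too, from 7.32 and 8.40 to 9.52 and 10.25. Lcn2 stood between 7.50 and 8.12 in the untreated arrays, and its difference of 3.61 did not pass (limma adjusted p = 0.0965 in the prefix fit).

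**Figure D5:**
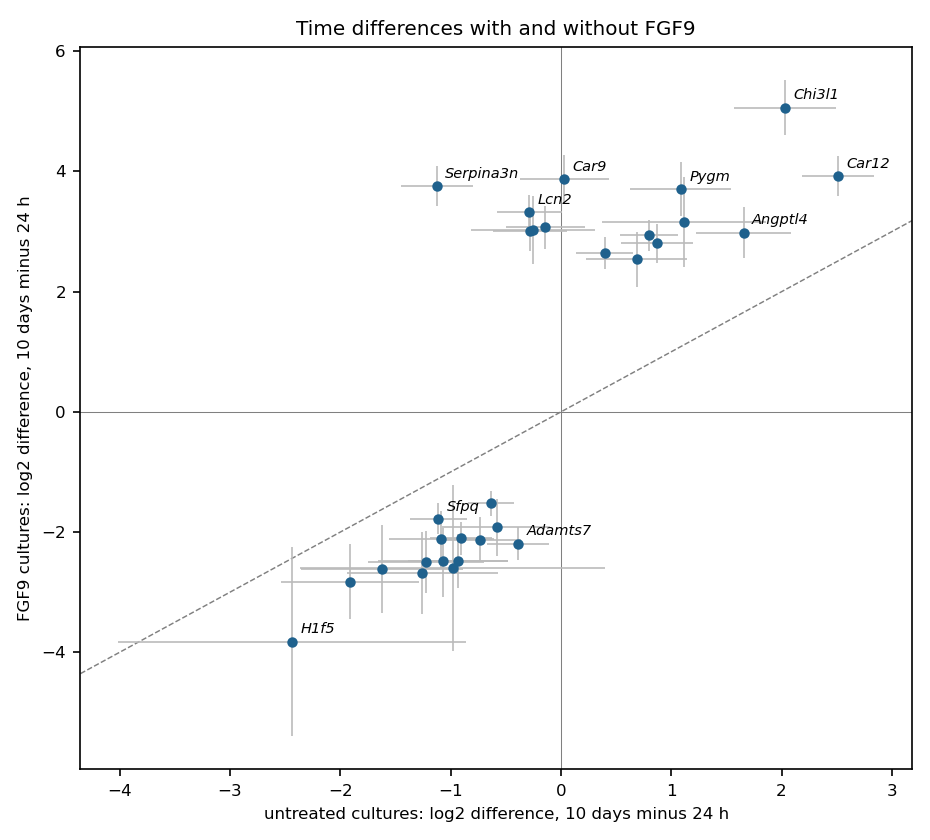
Log2 difference from 24 h to 10 days in FGF9 cultures (vertical axis) against untreated cultures (horizontal axis) for the 30 genes with the widest gap in FGF9 cultures; bars are standard errors of the fit without prefix and the dashed line marks equal differences. Serpina3n (3.76 with FGF9, -1.12 without) lies furthest from the line; the genes were picked for their FGF9 difference, so that distance from the line is partly set by the choice.

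For most genes the direction was shared or not separated. With no overlap in either kind of culture, 983 genes were higher in both and 951 lower in both, while 149 were higher with FGF9 and lower without it and 122 the reverse. Among the replication genes with the widest gaps the untreated difference had the same sign, at -1.91 for Mcm5, -1.22 for Mcm6 and -0.93 for Cdc6, and the difference between the cultures did not pass for any of the 3.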

How the data were processed

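Values are the authors' deposited log2 values, 1 per feature and array. The log2 scale is read from their range and not stated. GCRMA, which corrects background by probe sequence and summarizes probes, and Partek 6.5 are named in the submitters' processing notes, with no further step. Background correction of this kind compresses low values. Of 29214 features, 15310 had 1 gene symbol, and the feature with the highest mean over 8 arrays was kept per gene, leaving 14506 genes. The number of arrays limits precision.

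The limma package (3.58.1, in R 4.3.3) fitted a mean for each of the 4 groups on 8 arrays with lmFit and eBayes, leaving 4 residual degrees of freedom, two-sided, with p-values adjusted by Benjamini-Hochberg across the 14506 genes at a threshold of 0.05, without and with the array name prefix as a block. The fits were tested on simulated data. No overlap means that all 4 differences between a 10-day and a 24 h array have 1 sign. The comparison, its members and the 35 gene lists (712 distinct genes measured) were chosen with earlier results of these data known.

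Genes were named by a rule: 15 per direction with the widest gap among genes at or above the median level at their higher time, 10 per direction with the smallest adjusted p in the prefix fit among those with no overlap, up to 4 per list by gap, and markers and FGF genes named in any case. Loci without a standard name were skipped. Some genes that the rule picked are not described, among them Asph, Cpxm1 and Rad9b, which rose. Replicate numbers did not pair the times: deviations of same-numbered FGF9 arrays at 24 h and 10 days correlated at -0.061.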

Additional observations from a re-analysis of the deposited data

Results flagged for a closer look

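The change from 24 h to 10 days differed between FGF9 and untreated cultures in 7 genes by the test of that difference with the prefix as a block, with more change under FGF9 in each: Serpina3n (4.88 log2 units), Sectm1b (3.30), Car9 (3.84), Gfral (3.28), Fndc3c1 (3.13), Chi3l1 (3.03) and Gja5 (2.52). With the prefix as a random block Serpina3n, Sectm1b, Car9 and Gja5 passed and the other 3 did not.

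For 5 other genes named in the text above, every FGF9 array moved one way between the times and every untreated array the opposite way. The difference between the 2 time changes was 2.07 log2 units for Etv4, 1.90 for Bcas1, 1.80 for Fgfr3, 1.23 for Gpr17 and -1.62 for Spaca9, a gene of motile cilia. None of these 5 passed the test of the difference in either limma fit, with or without the prefix. They rest on the separation of the arrays alone, which 149 genes showed upwards with FGF9 and 122 downwards. Random ordering of so few arrays would also give such opposite separation in many genes, and these counts were not tested against it. The 5 genes were picked for this separation, so it does not by itself show a difference between the cultures.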

How the results depend on the processing

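Over the 14506 genes, 0 higher and 0 lower calls without a block became 708 and 881 with the prefix as a fixed block and 150 and 59 with it as a random block. Leaving the AA1 arrays out of the fixed block fit gave 1072 and 1334, and leaving the CL1 arrays out 223 and 263. The replicate block, built on the replicate number of the titles, gave 2 higher (Chi3l1 and Gfral) and 0 lower; the numbers do not pair the times. The count for the difference between FGF9 and untreated time changes was 0 without a block, 7 with the fixed block, 4 with the random block, 9 without AA1 and 1 without CL1. Leaving out any 1 array without a block, quantile normalization, array medians subtracted, genes above the median only, averaged features, FGF9 arrays alone and a mean-variance trend each gave 0 calls in the contrasts they were run on. The fits without AA1 or CL1 were chosen after seeing the data.

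Counts of genes with no overlap ran from 4505 to 5715 higher and from 4480 to 6021 lower when 1 FGF9 array was left out, since fewer arrays must then be separated. In the CL2 pair, differences of at least 0.5 log2 units were found in 1885 genes higher and 2225 lower, of at least 2 in 67 and 42, and of at least 1 in 363 and 444 among genes at or above the median.

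Some named genes turned direction. Mog (-0.20) was at 1.85 with the fixed block, 1.14 with the random block, 2.04 without AA1, 1.96 without CL1 and 2.14 in the CL2 pair. Cd68 (near 0) was at 1.05, 0.69, 0.81, 0.86 and 0.63 in the same order, and at 0.008 with array medians subtracted. Spry4 (0.19) was at -0.47, -0.24, -0.61, -0.53 and -0.67. Top2a (-1.46) was at 0.14 with the fixed block and 0.023 without CL1. With 1 array left out, ranges spanned 0 for Aif1 (-0.10 to 0.64), Ccnd1 (-0.63 to 0.16), Cd68 (-0.41 to 0.41), Fgf9 (-0.97 to 0.10), Fgfr2 (-0.085 to 1.16), Mal (-1.04 to 2.54), Mbp (-0.61 to 1.00), Mog (-1.67 to 1.28), Nefl (-0.77 to 0.41) and Spry4 (-0.24 to 0.63). The cause of these turns was not tested. The red blood cell list had no value among genes above the median.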

Other observations

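Some RNA-processing families, looked at after their values were seen, were lower at 10 days in FGF9 cultures by counts of separated arrays. Over all genes 19.6% were lower and 20.2% higher with no overlap. Of 17 Hnrnp ribonucleoproteins, which package nascent transcripts, 13 were lower and 0 higher with no overlap, with a median of -0.75 (-0.50 in the CL2 pair) and -0.47 in untreated cultures. Of 11 Srsf splicing factors 7 were lower and 1 higher, with a median of -0.67. With the prefix as a block 2 of the Hnrnp genes fell and 0 of the Srsf genes passed in either direction. Of 29 histone genes 16 were lower and 1 higher, and 1 fell with the prefix as a block. Of 39 proteasome subunit genes 17 were lower and 4 higher, and 4 fell. In untreated cultures the genes lower with no overlap were 9 Hnrnp, 4 Srsf, 8 histone and 9 proteasome genes. Of all genes 13.6% were lower there. Other families were looked at too. Of 30 Rbm proteins 16 were lower and 2 higher, of 30 Ddx helicases 14 and 3, and of 13 Dhx helicases 5 and 1. Of 44 Eif factors 11 were lower and 9 higher, of 37 Nduf subunits 6 and 6, and of 83 potassium channel genes 11 and 13.

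Of 22 Hox genes, which set position along the spinal cord, 11 were lower and 0 higher with no overlap and 6 fell with the prefix as a block; the median was -0.29, and 3 of the 22 were lower in all untreated arrays. Of 76 genes with a ribosomal protein symbol (Rpl or Rps, a few of which are kinases) 19 were higher and 4 lower, with a median of -0.06.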
